A study of Homo sapiens with 12 samples.

Results

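The genes of the cytosolic ribosome were followed in T47D cells, a luminal breast cancer line with progesterone and estrogen receptors. They were taken by symbol: RPL or RPS followed by a number and, at most, a letter A, X or L and a further digit, together with RPLP0, RPLP1, RPLP2 and RPSA. The rule found 87 of the 55765 symbols in the count tables, 34 of the small (40S) subunit and 53 of the large (60S) subunit. Of these, 82 had enough counts to be tested (32 of the 40S and 50 of the 60S), and each of the 82 had at least 14 counts in every library. Among the 5 others were RPL3L and RPL10L, with 3 and 10 counts at most in a library, and RPL12L3, with 8 at most. RPL12L3 and RPS10L are names that RefSeq gives as synonyms of the pseudogenes RPL12P12 and RPS10P5, so these symbols are members by name only.

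The cytosolic ribosome holds a single copy of most of its proteins, and the small subunit reads the mRNA while the large subunit forms the peptide bond. Ribosomal protein mRNAs are among the most abundant of a growing cell. Most of them begin with a terminal oligopyrimidine tract (TOP), a C followed by a run of C and T, through which the mTOR pathway and the RNA-binding protein LARP1 control their translation. PRMT1, the main enzyme that places asymmetric dimethyl marks on arginines, is known to modify many RNA-binding proteins.

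Cells were maintained in medium with insulin and serum, and all 12 libraries come from this 1 line. They were given a nonspecific siRNA, siCT, or 1 directed at PRMT1, siPRMT1, followed by 10 nM of the synthetic progestin R5020 or the ethanol vehicle for 6 h. The 4 groups of 3 biological replicates were therefore siCT ethanol, siCT R5020, siPRMT1 ethanol and siPRMT1 R5020, and the study asked whether PRMT1 is needed for the progestin response. An siRNA lowers its target without removing it: PRMT1 stood at 29.7 to 50.7 CPM (read counts scaled to a common library size) in the 6 siCT libraries and at 6.89 to 8.38 CPM in the 6 siPRMT1 libraries.

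Total counts were 26783525 to 34120937 per library. The 12 markers of luminal cells summed to 8620 to 18200 CPM per library, but their levels were uneven. Medians over the libraries were 4320 CPM for KRT18 and 1610 for KRT8, against 72 for EPCAM, 70.1 for ESR1, 57.5 for KRT7 and 4.13 for TFF1. Of the markers of other cells, the 5 basal-like genes summed to 20.2 to 214 CPM, nearly all from CD44, the 4 fibroblast genes to 28.7 to 79.1 CPM, nearly all from COL1A1, and the leukocyte, endothelial and red cell lists to at most 2.35 CPM. The luminal sum moved with the groups (10400 to 12000 CPM in siCT ethanol, 17600 to 18200 in siPRMT1 ethanol), and its part in the results was not tested. In siCT ethanol replicate 3 and siCT R5020 replicate 1, mitochondrially encoded (MT-) genes took 59.3% and 52.4% of counts, against 31.3% to 38.3% in the 10 other libraries. These 2 siCT libraries are called the high-mitochondrial pair, and the counts over the ribosomal protein genes, and most single genes, are given with and without them. In bulk RNA, fewer cells and less RNA per cell cannot be told apart.

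The starts of 8 of these genes are shown because the results below turn on them: 4 whose counts were lower with siPRMT1, RPL22L1 with its paralog RPL22, and RPS26 and RPS13, whose counts were higher. Each window holds 40 bases before the annotated start and 20 from it, so the start is base 41, and capitals mark a TOP-like tract, here a C with at least 4 following bases that are each C or T and with its first base within 5 bases of the start. The sequences are RefSeq's, build GRCh38.p14. Where RefSeq gives a gene several starts, the one with a tract nearest to it is shown, and a gene counts as having a feature if any of its starts does.
RPS3, chr11:75399478-75399537, plus strand: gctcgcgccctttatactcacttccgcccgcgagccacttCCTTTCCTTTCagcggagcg
RPS14, chr5:150449720-150449779, minus strand: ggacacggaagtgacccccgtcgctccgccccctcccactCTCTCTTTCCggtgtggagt
RPL3, chr22:39319604-39319663, minus strand: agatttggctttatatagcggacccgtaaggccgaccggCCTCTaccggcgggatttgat
RPL9, chr4:39458903-39458962, minus strand: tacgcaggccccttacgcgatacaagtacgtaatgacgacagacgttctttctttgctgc
RPL22L1, chr3:170870176-170870235, minus strand: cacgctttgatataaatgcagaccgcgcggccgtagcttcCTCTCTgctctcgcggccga
RPL22, chr1:6199576-6199635, minus strand: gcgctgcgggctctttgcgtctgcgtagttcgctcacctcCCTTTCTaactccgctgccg
RPS26, chr12:56041878-56041937, plus strand: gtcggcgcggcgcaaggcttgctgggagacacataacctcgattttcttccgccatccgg
RPS13, chr11:17077648-17077707, minus strand: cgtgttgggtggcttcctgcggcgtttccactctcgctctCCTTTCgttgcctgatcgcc

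The tract begins on the start itself in RPS3, RPS14, RPL22L1, RPL22 and RPS13, and 1 base before it in RPL3. RPL9 and RPS26 have no tract by this rule at the start that RefSeq annotates. Of the 87 members, 67 had a window in the RefSeq table. A TOP-like start was found in 54 of the 67 (80.6%), against 25.2% of the 27305 genes with a window. CTTTCC, on the gene's own strand and often part of the tract, was in the 300-base window of 38.8% of members and 16.6% of all genes. TATAAA on either strand was in 10.4% and 14%, and GGAA on either strand, whose reverse TTCC lies within CTTTCC, was in 100% and 96.3%. A match describes the letters and not the use of a site.

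Levels per kilobase of transcript spanned 3 orders of magnitude among these genes, although their proteins are mostly built into the ribosome in equal numbers. In the 10 libraries outside the high-mitochondrial pair, the median over the 82 tested genes was 240.6 CPM per kb. RPL19, of the large subunit, was highest at 3256 CPM per kb, followed by RPL27, at 2666. RPL12, a protein at the base of the stalk, stood at 978 CPM per kb. RPL19 and RPL27 together held 19.1% of all counts on the 87 genes. At the other end, 13 of the 82 lay under 20 CPM per kb, among them RPS10 at 2.21, RPL36A at 3.50, RPL17 at 3.68, RPL21 at 3.90, RPL39 at 5.02 and RPS26 at 13.7.

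Many of these genes have processed pseudogenes, copies of the spliced mRNA placed elsewhere in the genome, and reads from the gene and its copies can be divided between them. The tables hold 800 pseudogene symbols of this family, 401 of them with counts. Their counts came to 21.2% to 23.0% of the counts on the 87 genes in each library. For 8 genes the pseudogene symbols held more counts than the gene, among them 31.4 times as many for RPL39, 6.90 times for RPS21 and 4.06 times for RPS15A, and 1.13 to 1.96 times for RPL14, RPL7A, RPS7 and RPL15. The values of these 8 are uncertain, and those of other genes with copies may be as well. RPS10 held 588 counts over the 12 libraries and has 10 pseudogene symbols, RPL9 held 9822 and has 16, and RPS26 held 5773 and has 20. Readthrough symbols, which join a gene to its neighbour, can share reads as well. RPS10-NUDT3, RPL17-C18orf32 and RPL36A-HNRNPH2 together held 0 counts in every library. Whether reads of RPS10, RPL17 and RPL36A were left out for overlapping them was not tested, so the values of these genes are uncertain too. Reads left out in counting as shared would be in neither the gene's nor the pseudogenes' counts, so a sum cannot restore them. Whether such a loss lowered these genes was not tested. Adding the pseudogene counts to each gene changed the counts of called genes little: with siPRMT1 in ethanol 48 genes were lower without the pair, as many as with the genes alone, where 24.5% of all genes were.

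**Figure D1:**
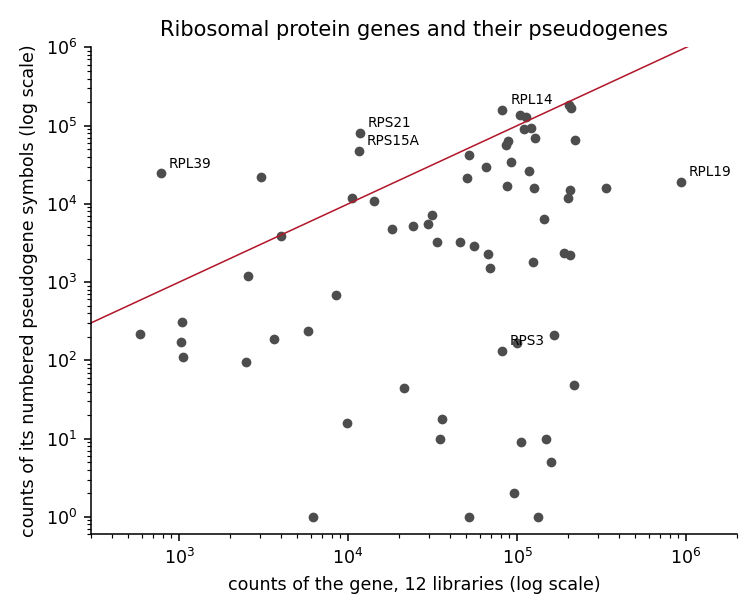
Counts on each ribosomal protein gene (x axis, log scale) against counts on its numbered pseudogene symbols (y axis, log scale), summed over 12 libraries, for the 66 tested genes that have such counts, with the red line at equality. RPL39, RPS21, RPS15A and RPL14 lie above the line, and RPL19 and RPS3 lie far below it.

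The ribosomal protein genes made up a smaller part of the RNA in siPRMT1 cells than in the 4 siCT libraries outside the high-mitochondrial pair. Of the counts outside MT- genes, they held 4.08%, 4.07% and 2.21% in siCT ethanol replicates 1 to 3 and 2.72%, 3.72% and 3.74% in siCT R5020. In siPRMT1 ethanol they held 3.14%, 2.97% and 2.93%, and in siPRMT1 R5020 2.95%, 2.92% and 3.05%. The 6 siPRMT1 libraries thus lay within 2.92% to 3.14%, below 4 siCT libraries and above the 2 of the high-mitochondrial pair. Without the pair the group means were 4.08% ± 0.00566 (SD, n = 2) in siCT ethanol, 3.73% ± 0.0127 (SD, n = 2) in siCT R5020, 3.01% ± 0.112 (SD, n = 3) in siPRMT1 ethanol and 2.97% ± 0.0665 (SD, n = 3) in siPRMT1 R5020. With it, the siCT means were 3.46% ± 1.08 and 3.39% ± 0.583 (SD, n = 3), and their spread took in both siPRMT1 groups.

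**Figure D2:**
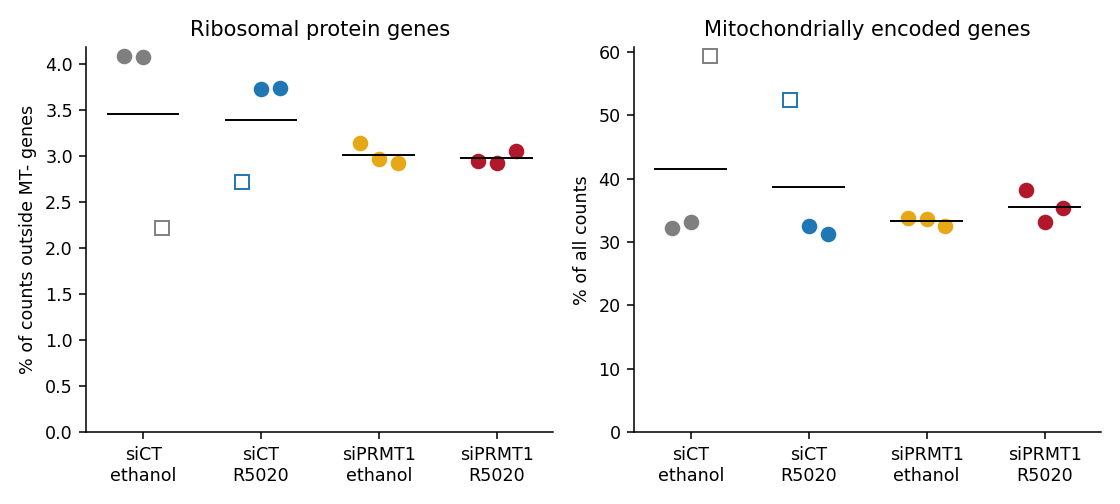
Share of counts outside MT- genes on the 87 ribosomal protein genes (left, percent) and share of all counts on MT- genes (right, percent), 1 point per library, with a line at each group mean. The open squares are the 2 siCT libraries with 59.3% and 52.4% MT- counts, which have the lowest ribosomal protein shares, 2.21% and 2.72%.

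The pair was low in most of these genes. For 59 of the 82, both libraries of the pair had less CPM than all 4 other siCT libraries, which held for 23.5% of all genes tested; for 8 both had more, against 22.4% of all genes. Of the 12 libraries, siCT ethanol replicate 3 was the lowest for 51 of the 82 genes, and siCT ethanol replicates 1 and 2 were the highest for 29 and 31. This was not counted over all genes, whose spread was also widest in siCT ethanol. The median SD of log2 CPM there was 0.434 over all genes tested and 0.498 over the 82. RPL9, RPS10, RPS21 and RPL36A were not lower in the pair. The pair also differed in the noncoding RNA MALAT1, at 1519 and 948 CPM. MALAT1 stood at 251 to 416 CPM in the 4 other siCT libraries and at 347 to 486 CPM in the 6 siPRMT1 libraries. Whether the low ribosomal protein counts of the pair come from the mitochondrial share or from the quality of the RNA was not tested.

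With PRMT1 knocked down in ethanol, the median log2 fold change was -0.23 over the 82 genes, against -0.07 over all 17727 genes tested, and 59 of the 82 lay below 0, most of them not called. The test was edgeR's quasi-likelihood test, and a gene counted as called at a Benjamini-Hochberg adjusted p under 0.05 over all genes. Over all 12 libraries 7 of the 82 genes were called lower, where 19.2% of all genes were, and 2 were called higher, where 13.6% were. The called share of these genes was below that background in each direction. Without the high-mitochondrial pair the median was -0.37, against -0.04 for all genes, and 48 of the 82 genes were called lower (17 of 32 in the 40S and 31 of 50 in the 60S), against 24.3% of all genes. A further 4 were called higher, against 20.2% of all genes.

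The count of lower genes moved with the libraries used. Leaving out siCT ethanol replicate 3 alone gave 26 lower genes in ethanol, where 15.9% of all genes were lower. Leaving out siPRMT1 ethanol replicate 1, 2 or 3 gave 4 each time, where 11.9%, 12.5% and 11.6% of all genes were. In R5020 the count was 3 without siCT R5020 replicate 1 (all genes 9.87%) and 1 without siPRMT1 R5020 replicate 2 (all genes 7.11%). Without the pair, 51 of the 82 genes had all 3 siPRMT1 ethanol libraries below both siCT ethanol libraries, and 31.9% of all genes did. In R5020, 55 of the 82 genes had the siPRMT1 libraries below the siCT libraries without overlap, and 34.2% of all genes did.

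In R5020 the knockdown gave a median of -0.17 over the 82 genes, against -0.03 for all genes. A total of 5 were called lower (background 14.2%) and 2 higher (background 11.5%). Without the pair the median was -0.23, against 0.00 for all genes, with 32 genes lower (background 19.6%) and 4 higher (background 19.3%). Of the 48 genes lower in ethanol and the 32 lower in R5020, 31 were in both, which is 64.6% and 96.9% of the lists. The same overlap was not computed over all genes, so it cannot be called particular to the ribosomal protein genes. The comparisons share no library, but they share the fit's estimate of the spread.

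**Figure D3:**
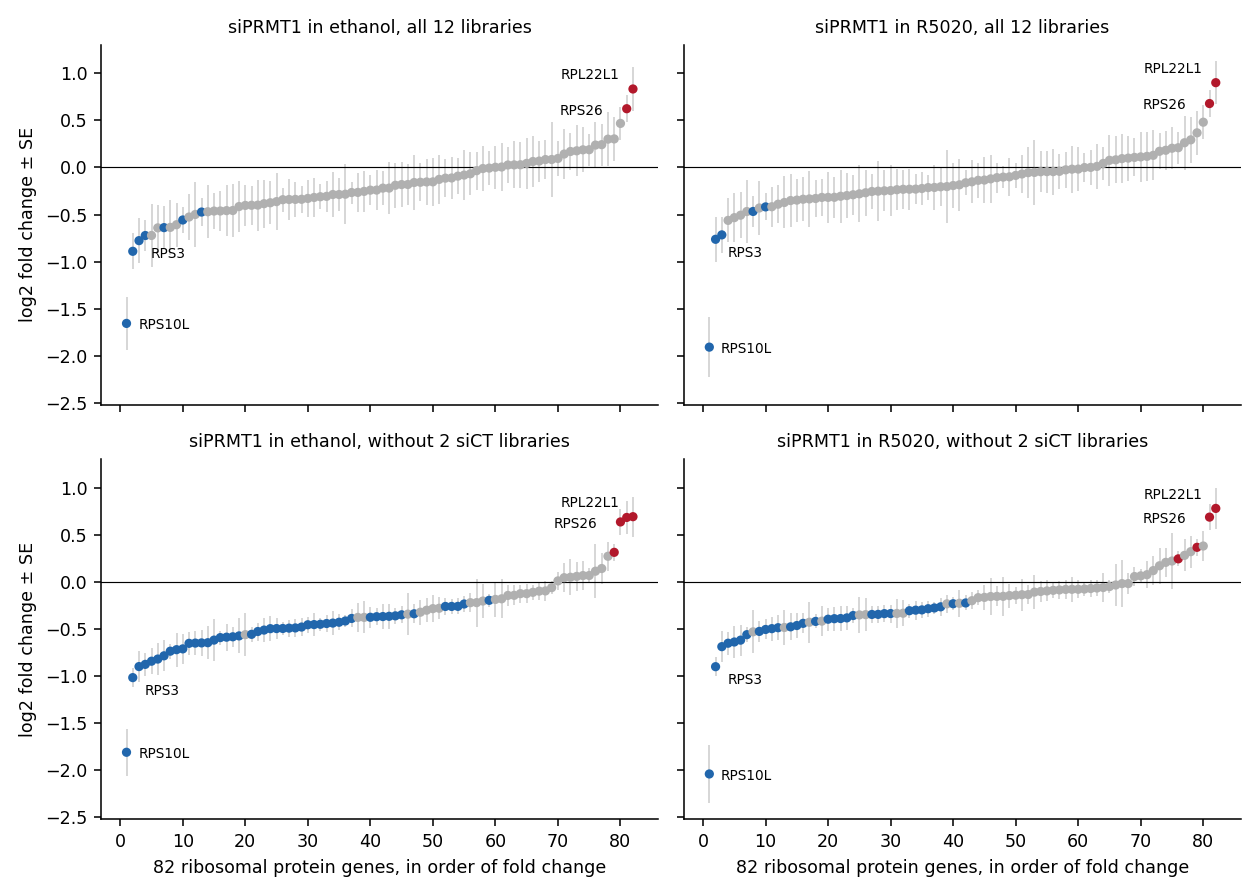
Log2 fold change with siPRMT1 (y axis, ± SE) of the 82 tested ribosomal protein genes, in order of size, in ethanol (left) and R5020 (right), over all 12 libraries (top) and without the 2 high-mitochondrial siCT libraries (bottom). Genes called lower by edgeR's quasi-likelihood test are blue, those called higher red and the others grey; 7 and 5 genes are blue in the top panels and 48 and 32 in the bottom panels.

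Over all 12 libraries the largest falls of single genes were in the small subunit, with RPS10L, a member by name only, first. In ethanol 15.6% of the 40S and 4% of the 60S genes were called lower, where 19.2% of all genes were. Without the pair these shares were 53.1% and 62%, against 24.3%. RPS3, a protein of the mRNA entry channel that also acts in DNA repair, stood at 332.5, 271 and 156 CPM in siCT ethanol and at 143.9, 149 and 150 CPM in siPRMT1 ethanol. It stood at 215, 299 and 312 CPM in siCT R5020 and at 143.2, 170 and 174 CPM in siPRMT1 R5020. All 6 siPRMT1 libraries were below 5 of the 6 siCT libraries, and siCT ethanol replicate 3 lay within the siPRMT1 range. By edgeR's quasi-likelihood test RPS3 fell by 0.78 ± 0.24 on the log2 scale (SE, adjusted p = 0.025) in ethanol and by 0.76 ± 0.24 in R5020 (adjusted p = 0.0324). Without the pair it fell by 1.02 ± 0.10 (adjusted p = 2.07e-05) in ethanol and by 0.90 ± 0.10 (adjusted p = 6.22e-05) in R5020.

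RPS14, a protein of the platform of the small subunit, was not called over all 12 libraries: its log2 fold change in ethanol was -0.64 (adjusted p = 0.0578 by edgeR). Its CPM were 273, 190 and 122 in siCT ethanol and 123, 119 and 132.5 in siPRMT1 ethanol, so that only the library of the pair overlapped. Without the pair it fell by 0.88 ± 0.12 in ethanol (SE, adjusted p = 0.00021) and by 0.65 ± 0.12 in R5020 (adjusted p = 0.00165). RPS2, which lies beside RPS3 in the assembled subunit and is a substrate of the arginine methyltransferase PRMT3, stood at 457, 371 and 240.5 CPM in siCT ethanol and at 242.5, 228 and 215 CPM in siPRMT1 ethanol. It fell by 0.64 ± 0.23 (adjusted p = 0.0481 by edgeR) in ethanol, a call that 16 of 24 other settings lost, and by 0.84 ± 0.14 (adjusted p = 0.000561) without the pair. Without siCT ethanol replicate 1 the log2 fold change of RPS2 was -0.42 and not called.

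RPS10 and its near namesake RPS10L were low in count. RPS10 stood at 1.91, 1.62 and 2.02 CPM in siCT ethanol and at 1.01, 0.985 and 0.979 CPM in siPRMT1 ethanol, from 32 to 70 counts a library. In R5020 it stood at 2.34, 1.93 and 2.19 CPM with siCT and at 1.36, 1.17 and 1.39 CPM with siPRMT1. The groups did not overlap under either treatment, and the pair was not low. RPS10, a protein of the small subunit's beak and a known substrate of the arginine methyltransferase PRMT5, fell by 0.89 ± 0.19 in ethanol (SE, adjusted p = 0.00449 by edgeR) and by 0.72 ± 0.19 in R5020 (adjusted p = 0.0152). Without the pair RPS10 fell by 0.82 (adjusted p = 0.00301) and 0.64 (adjusted p = 0.0119).

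RPS10L had the lowest fold change in all 4 comparisons. It stood at 7.25, 3.78 and 3.61 CPM in siCT ethanol, 2.02, 3.17 and 2.62 in siCT R5020, 1.502, 1.44 and 1.74 in siPRMT1 ethanol and 0.775, 0.510 and 0.788 in siPRMT1 R5020, from 14 to 266 counts a library. No library of 1 group overlapped another group, so both siPRMT1 and R5020 went with lower counts. By edgeR's quasi-likelihood test it fell by 1.66 ± 0.28 with siPRMT1 in ethanol (adjusted p = 0.00123) and by 1.91 ± 0.32 in R5020 (adjusted p = 0.00133). Without the pair the log2 fold changes of RPS10L were -1.81 (adjusted p = 0.000205) and -2.04 (adjusted p = 0.000443). R5020 lowered it by 0.91 ± 0.28 with siCT (adjusted p = 0.0463) and by 1.16 ± 0.32 with siPRMT1 (adjusted p = 0.0269), calls that 13 and 7 of 24 other settings lost. Without the pair RPS10L fell with R5020 by 0.93 (adjusted p = 0.028) and 1.16 (adjusted p = 0.0129), but without siCT ethanol replicate 1 its log2 fold change in siCT cells was -0.49 and not called. The pseudogene that RefSeq gives this name lies within FAM110A, and without a stated strand setting their reads cannot be told apart. FAM110A itself had log2 fold changes of 0.35 with siPRMT1 in ethanol (adjusted p = 0.155 by edgeR) and 0.12 in R5020 (adjusted p = 0.666). With R5020 it went down, as RPS10L did, by 0.23 with siCT (adjusted p = 0.511) and by 0.46 with siPRMT1 (adjusted p = 0.122). Without the pair the fall of FAM110A with R5020 in siPRMT1 cells was 0.47 and called (adjusted p = 0.0494).

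RPS21 fell in ethanol by 0.56 ± 0.14 (SE, adjusted p = 0.00827 by edgeR), from 34.7, 34.2 and 43.3 CPM to 26.4, 24.5 and 25.3 CPM, with no overlap. In R5020 its log2 fold change was -0.16 (adjusted p = 0.394). Without the pair RPS21 fell in ethanol by 0.43 (adjusted p = 0.00202). RPS6, the substrate of S6 kinase, was -0.15 (adjusted p = 0.656) in ethanol over all 12 libraries and fell by 0.42 ± 0.07 without the pair (adjusted p = 0.000617 by edgeR). RPS19, the gene most often mutated in Diamond-Blackfan anemia, was -0.40 (adjusted p = 0.147) and fell by 0.58 ± 0.11 without the pair (adjusted p = 0.00119). RPSA, also known as the laminin receptor, was 0.14 (adjusted p = 0.698) and -0.13 (adjusted p = 0.308) without the pair.

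In the large subunit, no siPRMT1 library reached the RPL9 level of any siCT library. RPL9 stood at 27.4, 29.1 and 39.97 CPM in siCT ethanol and at 20.9, 19.0 and 18.5 in siPRMT1 ethanol, and at 36.5, 28.0 and 30.2 CPM in siCT R5020 and 23.8, 22.4 and 22.2 in siPRMT1 R5020. By edgeR's quasi-likelihood test it fell by 0.72 ± 0.16 (SE, adjusted p = 0.00531) in ethanol and by 0.47 ± 0.16 (adjusted p = 0.048) in R5020, and 13 of 24 other settings lost the R5020 call. Without siCT ethanol replicate 3 the log2 fold change of RPL9 in ethanol was -0.48. The pair held its 2 highest values, and without the pair the falls were 0.53 (adjusted p = 0.00115) and 0.34 (adjusted p = 0.0165).

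RPL3, which reaches toward the peptidyl transferase centre, stood at 405, 233 and 151.5 CPM in siCT ethanol and at 161, 166 and 180.5 CPM in siPRMT1 ethanol. Its log2 fold change was -0.64 (adjusted p = 0.108 by edgeR) over all 12 libraries, and it fell by 0.90 ± 0.16 (SE, adjusted p = 0.0012) without the pair. RPLP1, an acidic protein of the stalk that recruits elongation factors, was -0.61 (adjusted p = 0.0623) and fell by 0.79 ± 0.16 without the pair (adjusted p = 0.00269). RPLP0, the base of the stalk and a common reference gene, was -0.40 (adjusted p = 0.273) and fell by 0.65 ± 0.13 without the pair (adjusted p = 0.00176). RPL13A, another common reference gene, was -0.46 (adjusted p = 0.212) and fell by 0.71 ± 0.16 without the pair (adjusted p = 0.00376).

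RPL5 and RPL11, which with 5S RNA bind MDM2 when ribosome assembly is impaired, had log2 fold changes of 0.00 (adjusted p = 0.991) and -0.26 (adjusted p = 0.345) in ethanol by edgeR. Without the pair RPL5 fell by 0.26 ± 0.09 (SE, adjusted p = 0.0275) and RPL11 by 0.48 ± 0.09 (adjusted p = 0.0018). RPL10, among the last large-subunit proteins to join, fell by 0.42 ± 0.14 in R5020 (adjusted p = 0.0466), a call that 12 of 24 other settings lost, and by 0.30 (adjusted p = 0.0345) without the pair. Among the genes not called over all 12 libraries, RPS3A was lowest in ethanol at -0.72 (adjusted p = 0.11) and RPLP1 lowest in R5020 at -0.56 (adjusted p = 0.0932), followed by RPS24 at -0.53 (adjusted p = 0.14). RPS3A stood at 7.63, 14.4 and 20.9 CPM in siCT ethanol and at 9.88, 7.29 and 8.62 CPM in siPRMT1 ethanol, and these groups overlapped. Without the pair RPS3A was -0.34 (adjusted p = 0.224) in ethanol, and in R5020 RPS24 was -0.53 (adjusted p = 0.0839) and RPLP1 fell by 0.69 (adjusted p = 0.00676).

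**Figure D4:**
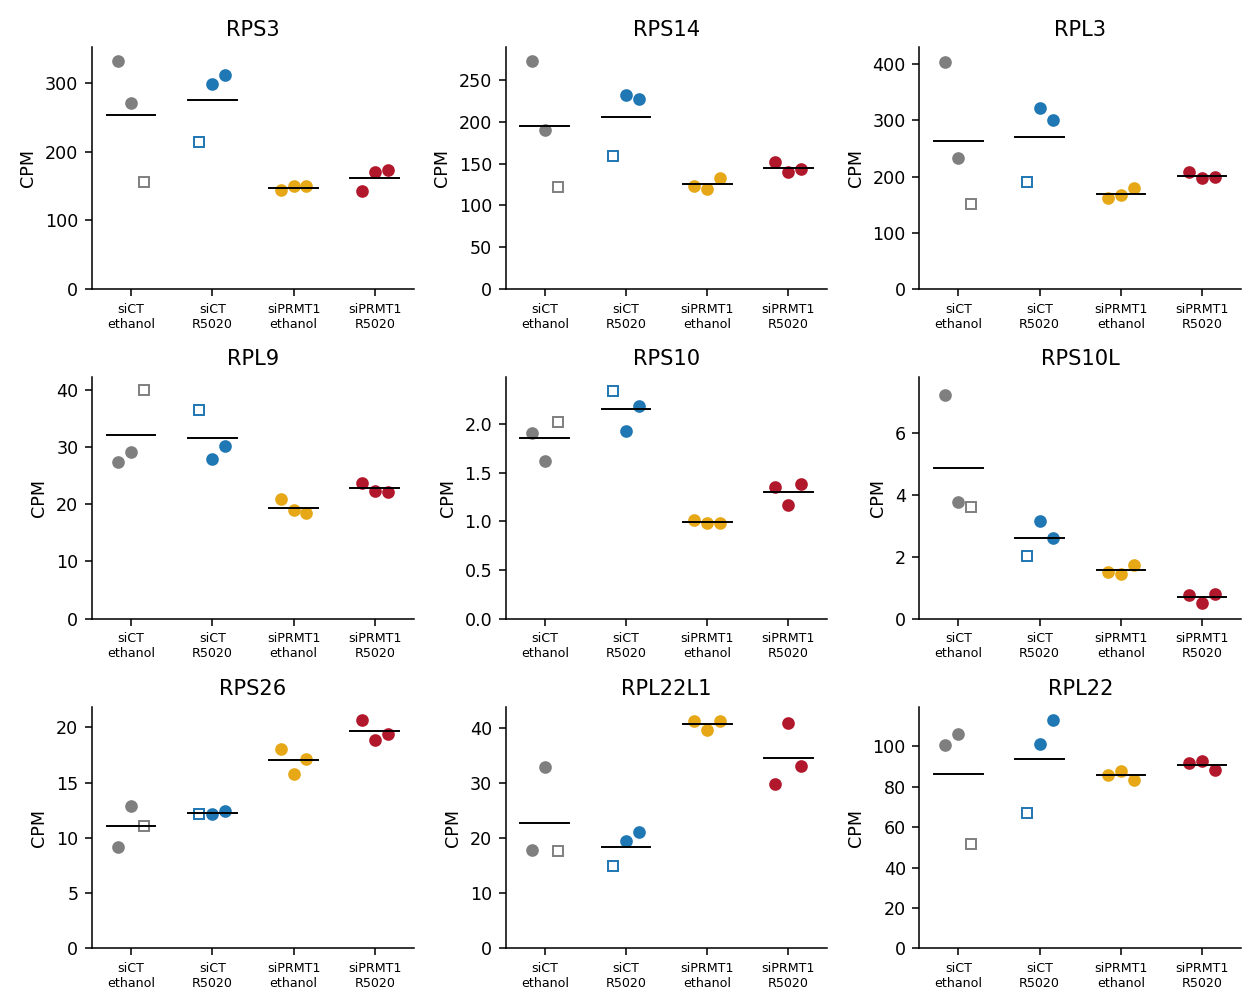
CPM of 9 genes in each library (points), with a line at each group mean; open squares are the 2 high-mitochondrial siCT libraries. In RPS3, RPS14 and RPL3 the siPRMT1 points lie below the filled siCT points and near the open ones, in RPL9, RPS10 and RPS10L below all siCT points of the same treatment, and in RPS26 above all siCT points.

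A small number of genes went the other way. RPS26, a protein of the mRNA exit channel, stood at 9.16, 12.9 and 11.1 CPM in siCT ethanol, 12.2, 12.1 and 12.5 in siCT R5020, 18.1, 15.8 and 17.1 in siPRMT1 ethanol and 20.6, 18.9 and 19.4 in siPRMT1 R5020. All 6 siPRMT1 libraries were above all 6 siCT libraries, which was so for 9.94% of all genes. It rose 1.54-fold in ethanol (log2 0.62 ± 0.14 SE, adjusted p = 0.00622 by edgeR) and 1.60-fold in R5020 (log2 0.68 ± 0.14, adjusted p = 0.00482), and by 0.64 and 0.69 without the pair. The only other tested member with this order was RPS13, also of the small subunit, at 73.3 to 113.5 CPM in siCT and 125 to 147 CPM in siPRMT1. RPS13 was not called over all 12 libraries (log2 0.47, adjusted p = 0.0593 in ethanol) and rose by 0.31 ± 0.09 (adjusted p = 0.0129) without the pair. The opposite order, all 6 siPRMT1 libraries below all 6 siCT libraries, held for RPL9, RPS10 and RPS10L and for 11% of all genes.

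RPL22L1, the paralog that can replace RPL22 in the ribosome and is known to be repressed by it, rose 1.78-fold in ethanol (log2 0.83 ± 0.23 SE, adjusted p = 0.0153 by edgeR) and 1.87-fold in R5020 (log2 0.90 ± 0.23, adjusted p = 0.0135). It stood at 17.8, 32.9 and 17.6 CPM in siCT ethanol and at 41.2, 39.7 and 41.2 CPM in siPRMT1 ethanol, and at 14.9, 19.4 and 21.1 CPM against 29.7, 40.8 and 33.0 CPM in R5020. The siPRMT1 libraries were above the siCT libraries of the same treatment in every case. Without the pair RPL22L1 rose by 0.69 (adjusted p = 0.0204) and 0.78 (adjusted p = 0.0141). RPL22 stood at 101, 106 and 51.8 CPM in siCT ethanol and at 85.8, 87.7 and 83.6 CPM in siPRMT1 ethanol. Its log2 fold change was -0.01 (adjusted p = 0.978) over all 12 libraries, and without the pair it fell by 0.26 ± 0.08 (adjusted p = 0.0196) in ethanol and by 0.22 ± 0.08 (adjusted p = 0.0425) in R5020. RPL36A was called higher in ethanol without the pair (log2 0.68 ± 0.17, adjusted p = 0.00822), from 1.499 and 1.83 CPM to 2.61 to 2.71 CPM, but its 2 highest values, 4.48 and 5.25 CPM, were those of the pair.

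No other paralog was called higher over all 12 libraries. In ethanol over all 12 libraries RPS27L, a p53 target, was 0.30 (adjusted p = 0.438), RPL7L1 0.10 (adjusted p = 0.717), RPL26L1 -0.09 (adjusted p = 0.73) and RPL39L 0.03 (adjusted p = 0.938) by edgeR. Their partners RPS27 (-0.50, adjusted p = 0.287), RPL26 (-0.46, adjusted p = 0.0806) and RPL39 (-0.46, adjusted p = 0.107) were not called either, and RPL7 fell by 0.47 ± 0.15 (SE, adjusted p = 0.0295). The call of RPL7 was lost in 9 of 24 other settings, and in R5020 its log2 fold change was -0.00 (adjusted p = 0.997). Without the pair RPS27L was 0.11 (adjusted p = 0.773), RPL7L1 -0.10 (adjusted p = 0.426), RPL26L1 -0.28 (adjusted p = 0.067) and RPL39L -0.22 (adjusted p = 0.103) in ethanol. Of their partners without the pair, RPS27 was 0.04 (adjusted p = 0.839), and RPL26 fell by 0.65 (adjusted p = 0.00125), RPL39 by 0.57 (adjusted p = 0.0268) and RPL7 by 0.50 (adjusted p = 0.012). RPL3L and RPL10L, known from muscle and testis, were near 0 counts, as given above.

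R5020 for 6 h moved few of these genes in siCT cells. In siCT cells 1 of the 82 was lower, RPS10L, and 0 were higher, where 5.43% and 7.59% of all genes were, and 1 had an unadjusted p under 0.05. Without the pair the counts were again 1 and 0, against 8.95% and 10.9%, and 3 had an unadjusted p under 0.05. DESeq2 gave 1 and 0, and limma's voom with sample quality weights 1 and 0. The median log2 fold change was 0.05 with the pair and -0.03 without it. Leaving out single siCT libraries moved it between -0.12 (without ethanol replicate 3) and 0.17 (without R5020 replicate 1), so it had no steady sign. Among genes not called, the values ran from -0.37 (RPS27, adjusted p = 0.596 by edgeR) to 0.36 (RPL36A, adjusted p = 0.653); without the pair these were -0.26 (adjusted p = 0.351) and 0.44 (adjusted p = 0.145).

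In siPRMT1 cells, whose 6 libraries hold none of the pair, R5020 gave a median of 0.10 over the 82 genes, against 0.00 for all genes, and 60 of the 82 were above 0. RPS10L was lower and 0 were called higher over all 12 libraries, where 6.08% and 9.3% of all genes were. For 34 of the 82 all 3 R5020 libraries lay above all 3 ethanol libraries, against 27.6% of all genes. Without the pair, whose spread no longer entered the fit, 4 rose (background 15.8%) and RPS10L fell (background 13.3%). These 4 were RPS2, by 0.47 ± 0.12 (SE, adjusted p = 0.0128 by edgeR), RPL27A, by 0.34 ± 0.09 (adjusted p = 0.0105), RPS21, by 0.23 ± 0.08 (adjusted p = 0.0446), and RPL28, by 0.23 ± 0.07 (adjusted p = 0.027). RPS2 stood at 242.5, 228 and 215 CPM in siPRMT1 ethanol and at 386, 272 and 298 CPM in siPRMT1 R5020, with no overlap. RPL27A stood at 13.6, 12.8 and 13.96 CPM against 17.4, 16.5 and 17.3 CPM. Other settings called more of these genes, and more of all genes. With quality weights in limma's voom 22 were higher and 3 lower, where 23.7% and 22.5% of all genes were. With edgeR on the 6 siPRMT1 libraries alone 26 were higher and 5 lower, where 23.9% and 22.7% were. With library totals in place of TMM scaling the medians moved below 0 together with those of all genes: -0.07 against -0.18 in siPRMT1 cells, and -0.01 against -0.07 in siCT cells, where TMM gave 0.05 against -0.04.

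Over all 12 libraries and without the pair, no ribosomal protein gene had a called difference between the R5020 responses of siPRMT1 and siCT cells; 1, RPL7, had one (0.59, adjusted p = 0.017 by edgeR) once a trend on GC content was removed and the pair left out. Over all 12 libraries the interaction called 0 of 82 in either direction by edgeR, where 0.0451% of all genes were called higher and 0.0338% lower, and 1 had an unadjusted p under 0.05. DESeq2 and limma's voom with quality weights also called 0. The interaction median was 0.06 over all 12 libraries and 0.14 without the pair, when 74 of the 82 genes were above 0, against 0.04 for all genes in both fits. Missing the threshold is no evidence of like responses, since the replicates of siCT ethanol and siCT R5020 had biological coefficients of variation of 0.324 and 0.212 (edgeR), those of the siPRMT1 groups 0.0462 and 0.0752.

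Base composition moved with the differences between libraries. Between siCT ethanol replicates 1 and 2, which had the same treatment and both lay outside the pair, the log2 difference of the 82 genes went with the GC content of their transcripts (Pearson r 0.783, Spearman rho 0.811, n = 82 genes of the same 2 libraries, which are not independent replicates). RPS27L, with 42.3% GC, had a log2 ratio of -1.26, and RPL18, with 58.2% GC, one of 0.88. Across all 14952 genes with a GC value the same correlation was 0.747 (rho 0.776). The log2 fold change with siPRMT1 in ethanol over all 12 libraries went with GC at r -0.262 (rho -0.233) over the 82 genes and r -0.377 (rho -0.436) over the 14952. Without the pair the relation over the 82 genes was stronger, at r -0.384 (rho -0.362) in ethanol and r -0.329 (rho -0.335) in R5020. Over all 15089 genes with a GC value it was then r -0.353 (rho -0.432) and r -0.311 (rho -0.381). After a trend on GC was removed from each of the 12 libraries, the median of the 82 genes was -0.14 in ethanol and -0.10 in R5020. In ethanol 11 were lower, where 17.6% of all genes were, and in R5020 7, where 14% were. Over the 82 genes the relation with GC was then reversed and not removed, at r 0.271 (rho 0.301) in ethanol and r 0.267 (rho 0.373) in R5020. With the pair left out as well it was r 0.0771 (rho 0.158) and r 0.0599 (rho 0.156). With the trend removed and the pair left out, siPRMT1 in ethanol gave 50 of 82 genes lower and 5 higher (background 28% and 25%), and in R5020 39 lower and 7 higher (background 24.6% and 26.1%). RPS3 then fell by 0.93 ± 0.08 in ethanol (SE, adjusted p = 4.49e-07 by edgeR), RPS26 rose by 0.60 ± 0.11 (adjusted p = 0.000321), and RPL22L1, the member lowest in GC at 39.3%, rose by 0.37 ± 0.10 (adjusted p = 0.00451). RPL7 then had a called interaction (0.59 ± 0.13, adjusted p = 0.017; background 2.4% higher and 2.42% lower). Before the correction its CPM without the pair were 6.79 and 9.20 in siCT ethanol, 5.98 and 6.18 in siCT R5020, 5.71, 5.48 and 5.66 in siPRMT1 ethanol and 6.24, 6.41 and 6.43 in siPRMT1 R5020, and its interaction had an adjusted p of 0.325 by edgeR.

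**Figure D5:**
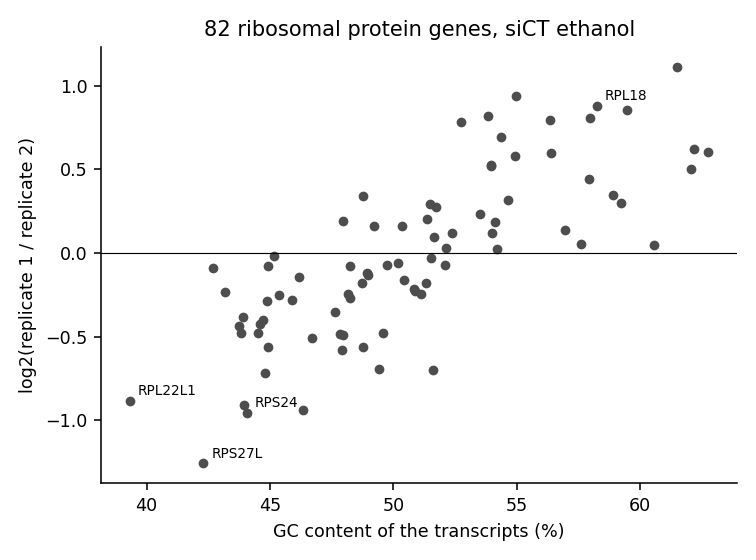
GC content of the transcripts (x axis, percent) against the log2 ratio of CPM in siCT ethanol replicate 1 over replicate 2 (y axis) for the 82 tested ribosomal protein genes, 1 point per gene. The points rise with GC content, and RPS27L lies at -1.26 and RPL18 at 0.88.

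A list of TOP genes outside the ribosome held 21 tested genes. Over all 12 libraries 1 of them, EIF3F, was lower with siPRMT1 in ethanol and EIF4A2 was higher (4.76% each, against 19.2% and 13.6% of all genes). Without the pair 9 were lower (42.9%, against 24.3%) and 1 higher (4.76%, against 20.2%), with a median of -0.20. The values that follow are without the pair. PABPC1, the poly(A)-binding protein, fell by 0.76 ± 0.07 (SE, adjusted p = 1.83e-05 by edgeR), EEF2, the translocation factor of elongation, by 0.68 ± 0.15 (adjusted p = 0.00308), TPT1 by 0.64 ± 0.06 (adjusted p = 2.35e-05) and GNB2L1, the ribosome-bound scaffold RACK1, by 0.65 ± 0.07 (adjusted p = 5.17e-05). EIF4A2, a helicase of initiation, rose by 0.82 ± 0.11 (adjusted p = 0.000164). Tested ribosomal protein genes with a RefSeq window were split by a TOP-like start, for siPRMT1 in ethanol without the pair. Lower were 33 of 54 with such a start (61.1%) and 4 of 12 lacking it (33.3%), against 24.3% of all genes. The difference was not tested and rests on only 12 genes lacking the tract. Over all 12 libraries, where 7 of the 82 genes were lower, the split was not made.

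Of 40 genes that build ribosomes, 11 were higher (27.5%, against 13.6% of all genes) and 3 lower (7.5%, against 19.2%) with siPRMT1 in ethanol over all 12 libraries, with a median of 0.23. Without the pair 12 were higher (30%, against 20.2%) and 7 lower (17.5%, against 24.3%), with a median of 0.14. UTP20, of the small-subunit processome, rose by 0.80 ± 0.12 (SE, adjusted p = 0.000651 by edgeR), GNL3 (nucleostemin) by 0.76 ± 0.13 (adjusted p = 0.00105), BYSL by 0.81 ± 0.17 (adjusted p = 0.00409) and LTV1, a late factor of the 40S, by 0.80 ± 0.17 (adjusted p = 0.00445). TCOF1, the treacle protein of rRNA transcription, fell by 0.82 ± 0.19 (adjusted p = 0.00631) and POLR1A, the largest subunit of RNA polymerase I, by 0.49 ± 0.13 (adjusted p = 0.0108). Without the pair UTP20 was 0.83, GNL3 0.71, BYSL 0.68, LTV1 0.81, TCOF1 -0.88 and POLR1A -0.40, each called. R5020 raised 4 of the 40 with siCT (10%, against 7.59% of all genes) and 5 with siPRMT1 (12.5%, against 9.3%) and lowered 0. Without the pair it raised 10 (25%, against 10.9%) and 15 (37.5%, against 15.8%) and lowered 0. NOP16 rose by 0.88 ± 0.17 (adjusted p = 0.00291) and 0.96 ± 0.17 (adjusted p = 0.00122), and TSR1, a late 40S assembly factor, by 0.66 ± 0.14 (adjusted p = 0.00487) and 0.71 ± 0.14 (adjusted p = 0.00269). Without the pair NOP16 rose by 0.78 and 0.96 and TSR1 by 0.66 and 0.70.

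Chaperones and import receptors of ribosomal proteins were higher with siPRMT1 in 4 of 12 cases (33.3%, against 13.6% of all genes in ethanol and 11.5% in R5020) and lower in 0 over all 12 libraries. Without the pair 4 were again higher, against 20.2% and 19.3%. PDCD2L, a relative of the RPS2 chaperone PDCD2, rose 3.47-fold in ethanol (log2 1.79 ± 0.24 SE, adjusted p = 0.000267 by edgeR) and 3.17-fold in R5020. HEATR3, which carries RPL5, rose by 0.64 ± 0.17 (adjusted p = 0.0115), and the importins IPO7 by 0.85 ± 0.22 (adjusted p = 0.0115) and TNPO1 by 0.72 ± 0.18 (adjusted p = 0.00862). Without the pair PDCD2L rose by 1.57 in ethanol and 1.59 in R5020, and HEATR3, IPO7 and TNPO1 by 0.79, 0.68 and 0.65 in ethanol. Without the pair TSR2, the chaperone of RPS26, fell by 0.49 ± 0.13 in ethanol (adjusted p = 0.0108). Pseudogene symbols of the ribosomal proteins were lower in 11 of 102 tested (10.8%, against 19.2% of all genes) and higher in 0 with siPRMT1 in ethanol over all 12 libraries, and lower in 39 without the pair (38.2%, against 24.3%).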

How the data were processed

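RNA of 12 T47D samples (TRIzol extraction, Lexogen SENSE mRNA kit V2, per the labels' protocols) is given as raw read counts per gene symbol, which the authors deposited without normalization. Bowtie2 2.3.2.2, HTSeq 0.9.1, DESeq2 and build hg19 are named in the submitters' processing notes; no strand setting or annotation release was given in the sources used here. A counter that leaves out reads shared by several places lowers genes with near-identical copies. The authors' table of comparisons was not used here.

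Groups come from the siRNA and treatment labels. The counts went into edgeR 4.0.16 (R 4.3.3, quasi-likelihood test, filterByExpr, minimum count 10, TMM, 1 mean per group over 12 libraries, Benjamini-Hochberg over 17727 genes, adjusted p under 0.05). CPM use the TMM library sizes. The p-values measure the spread between replicates as estimated over all 4 groups together. The p-value of a comparison therefore also depends on groups outside it, and the siCT replicates varied more (0.324 and 0.212) than the siPRMT1 replicates (0.0462 and 0.0752). The members and lists were chosen with earlier results of these data known. Genes are named if they were called, were among the 5 highest or lowest fold changes of a comparison, are paralogs, or were listed by role; some genes that the rule takes are not reported here. Alternatives were other scalings, no filter, DESeq2 1.42.0, limma 3.58.1 (voom with quality weights), the libraries compared only, a replicate block and leaving out libraries. Chosen after seeing the data were a GC correction (a loess trend of span 0.3 on GENCODE transcript GC, 84.35% of genes with a value, taken off each library) and summing pseudogene counts. The high-mitochondrial pair was itself picked from these counts, as the libraries with over 50% MT- counts. These are also the 2 lowest in ribosomal protein share, and without them each siCT group holds 2 libraries. Replicates of a group differed by more than sampling noise. Counts were also simulated for siPRMT1 in ethanol over 12 libraries. With spread as in the groups (17419 genes), 40 of 100 genes changed 2-fold and 99 of 100 changed 4-fold were recovered. Of the 164 calls made there, 25 were false, a larger share than the threshold of 0.05 allows. With even spread (17465 genes), 91 of 100 and 100 of 100 were recovered, and 11 of 202 calls were false. The fit without the pair was not simulated.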

Additional observations from a re-analysis of the deposited data

How the results depend on the processing

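Counts of called genes are by edgeR unless another tool is named, and the cause of a change of count was not tested. In parentheses is the share of all genes with the same call under the same setting, in the order of the counts. With library totals alone, siPRMT1 gave 1 higher and 1 lower in ethanol (7.47% and 9.57%) and 0 and 1 in R5020 (4.2% and 9.51%). R5020 then lowered 0 genes in siCT and 0 in siPRMT1 (4.01% and 6.58%). The median of all genes with siPRMT1 in ethanol moved from -0.07 to 0.11, and that of the ribosomal protein genes stayed below 0 at -0.09. Without a filter on counts, siPRMT1 in R5020 lowered 2 (8.91%). DESeq2 gave 1 higher with R5020 in siPRMT1 (10%). Quality weights gave 22 higher and 3 lower with R5020 in siPRMT1 (23.7% and 22.5%), 18 lower with siPRMT1 in ethanol (17.1%), and 6 higher and 39 lower with siPRMT1 in R5020 (27.3% and 28.3%). Without the high-mitochondrial pair, R5020 in siPRMT1 gave 4 higher (15.8%) and siPRMT1 gave 4 higher with 48 lower in ethanol (20.2% and 24.3%) and 4 higher with 32 lower in R5020 (19.3% and 19.6%). With the groups compared only, R5020 lowered 0 in siCT (1.54%) and gave 26 higher and 5 lower in siPRMT1 (23.9% and 22.7%), and siPRMT1 gave 1 higher and 3 lower in ethanol (7.54% and 12%) and 8 lower in R5020 (18.9%).

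With the replicate number as a block, R5020 in siCT lowered 0 (4.12%) and siPRMT1 in R5020 lowered 2 (12.1%); same-numbered libraries correlated at -0.667 to 0.29 over 18 pairs, and 2 of 12 libraries correlated best with their own number, so the numbers were not taken as pairs. With the GC trend removed, R5020 in siPRMT1 gave 1 higher (11.3%) and siPRMT1 in ethanol 11 lower (17.6%); without the pair too, R5020 gave 1 higher and 2 lower in siCT (17.9% and 16.8%) and 11 higher and 2 lower in siPRMT1 (23.3% and 19%), siPRMT1 gave 5 higher and 50 lower in ethanol (25% and 28%) and 7 higher and 39 lower in R5020 (26.1% and 24.6%), and the interaction 1 higher (2.4%). With pseudogene counts added and without the pair, R5020 in siPRMT1 gave 3 higher (15.9%), and siPRMT1 4 higher and 48 lower in ethanol (20.1% and 24.5%) and 4 higher and 33 lower in R5020 (19.3% and 19.8%). Leaving out each library in turn, R5020 in siCT gave 0 to 2 higher (5.65% to 9.59%) and 0 to 1 lower (2.92% to 7.54%). In siPRMT1 it gave 0 to 1 higher (6.45% to 11.2%) and 0 to 1 lower (3.4% to 9.94%). With siPRMT1 in ethanol 1 to 6 were higher (7.7% to 19.2%) and 4 to 26 lower (11.6% to 24.2%). There 26 were lower without siCT ethanol replicate 3 (15.9%) and 4 without any 1 of the siPRMT1 ethanol replicates (11.9%, 12.5% and 11.6%). Without siCT ethanol replicate 2 6 were higher (19.2%), and without siCT ethanol replicate 1 only 1 was (11.1%). With siPRMT1 in R5020 1 to 3 were higher (5.74% to 17.4%) and 1 to 8 lower (7.11% to 20%). There 8 were lower without siCT ethanol replicate 3 (20%) and 1 without siPRMT1 R5020 replicate 2 (7.11%). Of the 432 fold changes of genes called over all 12 libraries, recomputed under the alternatives, 334 kept direction and call, 98 kept the direction only and 0 reversed. Counts of 14 to 266 in RPS10L and 32 to 70 in RPS10 limit their precision.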

Other observations

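Mitochondrial ribosomal proteins, which are made from nuclear genes but work in the organelle's own ribosome, were tested for 75 genes. With siPRMT1 in ethanol 12 were higher (16%, against 13.6% of all genes) and 1 lower (1.33%, against 19.2%) by edgeR over all 12 libraries, with a median log2 fold change of 0.20. Without the high-mitochondrial pair 15 were higher (20%, against 20.2%) and 7 lower (9.33%, against 24.3%), with a median of 0.03. Among 20 genes that control translation through mTOR or MYC, 5 were higher (25%, against 13.6% of all genes) and 2 lower (10%, against 19.2%) in ethanol over all 12 libraries, and 6 (30%, against 20.2%) and 2 (10%, against 24.3%) without the pair. PDCD4, an inhibitor of the helicase EIF4A1, rose 2.34-fold (log2 1.23 ± 0.19 SE, adjusted p = 0.000706 by edgeR). The cap-binding protein EIF4E rose by 0.84 ± 0.22 (adjusted p = 0.0113), MYC, a known activator of ribosomal protein genes, by 0.40 ± 0.13 (adjusted p = 0.0289) and MDM2 by 0.61 ± 0.15 (adjusted p = 0.00978). TSC2, a brake on mTOR, fell by 0.92 ± 0.22 (adjusted p = 0.00836) and the MYC antagonist MXD1 by 0.61 ± 0.12 (adjusted p = 0.00331). Without the pair PDCD4 was 1.11, EIF4E 0.65, MYC 0.51, MDM2 0.58, TSC2 -0.68 and MXD1 -0.60, each called. With R5020 MYC rose by 0.67 ± 0.13 in siCT cells (adjusted p = 0.00296) and LARP1 by 0.67 ± 0.15 in siPRMT1 cells (adjusted p = 0.00811), and without the pair these were 0.72 and 0.66. NAP1L4, a nucleosome assembly protein in the list of chaperones and import receptors, rose by 1.85 ± 0.16 on the log2 scale with R5020 in siCT cells (adjusted p = 4.52e-06) and by 1.77 ± 0.16 in siPRMT1 cells (adjusted p = 5.27e-06), and by 1.79 and 1.76 without the pair.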
